A study of Mus musculus with 93 samples.

Results

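The genes described here encode the subunits of the proteasome, the enzyme complex that degrades ubiquitin-tagged proteins. They were taken as every gene whose symbol begins with Psma, Psmb, Psmc, Psmd or Psme followed by a number, which gave 44 genes. Psme2 held no usable value and was not used here, so 43 of the 21285 genes analysed remained. Of these, 14 are subunits of the constitutive core, 3 are the immunoproteasome subunits, 20 belong to the regulatory particle or are activators, and 6 are other matches. The 6 include the regulatory-particle assembly chaperones Psmd5, Psmd9 and Psmd10, and the tissue-restricted core subunits Psma8 and Psmb11. The last is Psmc3ip, a meiotic recombination factor that is not a proteasome subunit.

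The data are single-cell RNA-seq libraries of lung from adult C57BL/6 mice that carry Tbx4cre and the RosaTm reporter. Tbx4cre drives recombination in cells that express, or descend from cells that expressed, the mesenchymal transcription factor Tbx4. Tbx4 lineage+ cells (54 libraries) are set against Tbx4 lineage- cells (39 libraries) from lung of the same genotype, strain and age class. No treatment is named, both groups carry both alleles, and cells of both were gated as negative for CD31, CD45 and the dead-cell dye 7AAD. The protocol gives that gate as Epcam-positive, whereas the design text calls the cells mesenchymal.

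After 2 pairs of near-identical lineage+ profiles were averaged and cells with fewer than 1000 detected genes were left out, 50 lineage+ and 34 lineage- cells were analysed. No label names an animal or chip for a cell, and cells of a group share a name prefix, so each group counts as 1 sample. Lineage, chip, animal and preparation therefore cannot be told apart, no test between the groups was possible, and every ratio describes these libraries. Lineage+ cells held a median of 2412.5 detected genes (1071 to 3708) and lineage- cells 1812 (1027 to 2827).

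The groups also differed in cell makeup. The summed level of 10 fibroblast markers ranged between 1778 and 62930 FPKM (fragments per kilobase of transcript, scaled to library size) in lineage+ cells and between 0 and 25882 FPKM in lineage- cells, with medians of 17101 and 2.37 FPKM. The summed level of 21 epithelial markers had medians of 241 FPKM in lineage+ cells (0.243 to 2555) and 11782 FPKM in lineage- cells (121 to 638512). The summed level of 10 immune markers was listed at 0 in the median lineage+ cell (at most 318 FPKM) and had a median of 3146 FPKM in lineage- cells (0 to 48311). Epcam was detected in 1 of 50 lineage+ cells and 12 of 34 lineage- cells, and of 6 endothelial markers 3 were below detection in all cells (Pecam1, Cdh5 and Cldn5). Tek was detected in 9 lineage+ cells and 1 lineage- cell, Eng in 5 and 1, and Kdr in 5 lineage+ cells and no lineage- cell. Clustering without the proteasome genes gave 41 fibroblast-like and 9 mesothelial-like lineage+ cells. Among lineage- cells it gave 22 epithelial-like, 8 immune-like, 3 fibroblast-like and 1 mesothelial-like cells. The part of these differences in the results below was not tested.

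The proteasome has a barrel-shaped core of stacked rings, in which alpha subunits form the gate and beta subunits the inner chamber. Psmb5, Psmb6 and Psmb7 carry the chymotrypsin-like, caspase-like and trypsin-like sites. In immune cells, and in other cells exposed to interferon gamma, the immunoproteasome subunits Psmb8, Psmb9 and Psmb10 are built into new cores in place of Psmb5, Psmb6 and Psmb7, which alters the peptides offered to MHC class I molecules. The regulatory particle caps the core: its ATPases unfold the substrate, and its other subunits bind and remove ubiquitin. In lung, as elsewhere, the immunoproteasome is known from leukocytes and inflamed tissue.

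The values below are arranged around the exchangeable catalytic subunits, Psmb5 with Psmb8, Psmb6 with Psmb9 and Psmb7 with Psmb10. For all of these but Psmb7, the 250 bases upstream of the start are printed 5′ to 3′. Sequences and starts are from RefSeq on GRCm38.p6. Capitals mark matches on either strand to the antioxidant response element TGANNNNGC, the CCAAT box CCAAT, the interferon element (GAAA, any 2 bases, GAAA) and the gamma-activated site TTCNNNGAA.
Psmb5 promoter, chr14:54617996-54618245, minus strand: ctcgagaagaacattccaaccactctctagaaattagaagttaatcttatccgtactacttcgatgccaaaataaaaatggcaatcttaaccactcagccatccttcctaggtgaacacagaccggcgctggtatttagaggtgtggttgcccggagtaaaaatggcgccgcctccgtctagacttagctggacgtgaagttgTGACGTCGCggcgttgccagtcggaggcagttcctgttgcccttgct
Psmb8 promoter, chr17:34197945-34198194, plus strand: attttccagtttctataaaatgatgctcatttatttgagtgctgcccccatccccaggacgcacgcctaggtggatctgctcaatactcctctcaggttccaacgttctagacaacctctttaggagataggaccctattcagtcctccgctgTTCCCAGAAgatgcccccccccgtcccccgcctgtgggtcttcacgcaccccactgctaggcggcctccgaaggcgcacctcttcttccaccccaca
Psmb6 promoter, chr11:70525107-70525356, plus strand: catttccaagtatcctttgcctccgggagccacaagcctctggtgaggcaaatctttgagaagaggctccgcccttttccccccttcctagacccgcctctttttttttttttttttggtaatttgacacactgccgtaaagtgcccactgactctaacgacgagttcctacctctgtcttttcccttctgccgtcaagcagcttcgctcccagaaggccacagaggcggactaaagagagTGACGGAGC
Psmb9 promoter, chr17:34187331-34187580, minus strand: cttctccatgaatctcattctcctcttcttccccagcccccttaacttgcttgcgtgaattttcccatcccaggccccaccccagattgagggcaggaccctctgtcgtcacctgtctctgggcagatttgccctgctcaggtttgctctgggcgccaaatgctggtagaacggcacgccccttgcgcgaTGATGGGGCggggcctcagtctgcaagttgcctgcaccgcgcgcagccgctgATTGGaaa
Psmb10 promoter, chr8:105938393-105938642, minus strand: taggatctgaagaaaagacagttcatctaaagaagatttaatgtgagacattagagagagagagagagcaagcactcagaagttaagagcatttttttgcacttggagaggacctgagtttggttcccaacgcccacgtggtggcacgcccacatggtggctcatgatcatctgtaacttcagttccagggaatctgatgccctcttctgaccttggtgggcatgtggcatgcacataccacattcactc

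Psmb8 held the gamma-activated site at -97, counted back from the base before the start as -1. It was the only match among the 40 promoters of the 37 proteasome genes found in the RefSeq table, and 7.02% of all 32851 promoters in the table held this motif. Psmb5 held the antioxidant element at -47, Psmb6 at -9 and Psmb9 at -60, and Psmb9 also held the CCAAT box at -8. The antioxidant element matched in 16 of the 40 promoters (40.0%, against 35.2% of all promoters) and the CCAAT box in 15 (37.5%, against 33.8%). The interferon element matched in 3 (Psmb3, Psmd4 and Psmd9; 7.5%, against 2.98%). No match overlapped a match to another of these motifs in these 40 promoters. Psmb10 held none of them in this window.

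Mean levels of proteasome genes differed more between parts of the complex than between lineage groups. Core subunits had the highest means, with a median over the 14 genes of 121 FPKM in lineage+ cells and 119 FPKM in lineage- cells. Regulatory subunits and activators followed, with medians over 20 genes of 40.0 FPKM in lineage+ cells and 23.7 FPKM in lineage- cells. The 3 immunoproteasome genes had medians of 21.5 FPKM in lineage+ cells and 30.5 FPKM in lineage- cells. Across the 37 core, immunoproteasome and regulatory genes, the order of mean levels in lineage+ and lineage- cells had a Spearman rho of 0.76. These are points across genes that share libraries, and the value is a description.

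**Figure D1:**
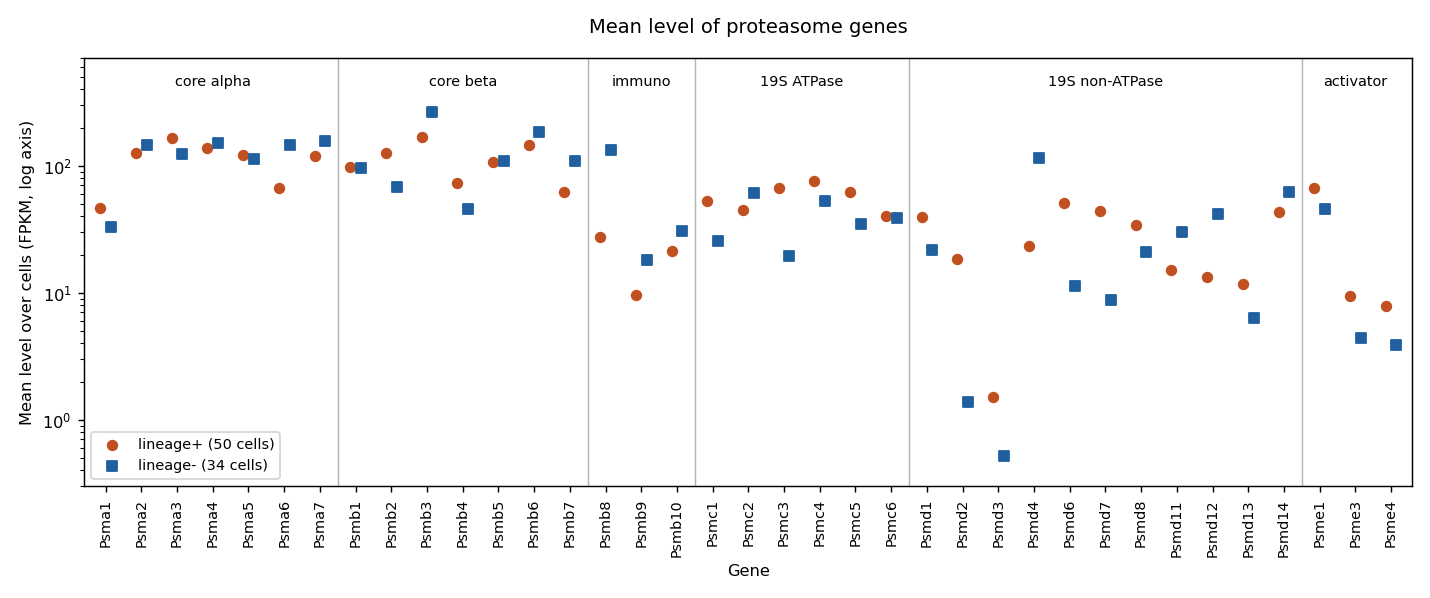
Mean level over the kept cells (FPKM, log axis) of 37 proteasome genes ordered by role, with lineage+ cells as orange circles and lineage- cells as blue squares. Core genes lie between 32.9 and 263 FPKM in both groups, and Psmd3 is lowest, at 1.51 FPKM in lineage+ cells and 0.521 FPKM in lineage- cells.

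Detection followed the same order. A gene was called detected in a cell at 1 FPKM. The median share of cells detecting a core subunit was 58% in lineage+ cells and 50.0% in lineage- cells, and for a regulatory subunit or activator 39% and 32.4%, in that group order. For an immunoproteasome subunit the medians were 22% of lineage+ cells and 23.5% of lineage- cells. Among the 37 genes, 25 had the higher share in lineage+ cells and 12 the lower, which is 67.6% higher, close to 68% of the 6082 genes whose shares averaged 10% or more. In none of the 37 were the exact 95% intervals of the groups apart. The same was not counted over all genes, so this is a description only. Intervals cover counting error over cells only.

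**Figure D2:**
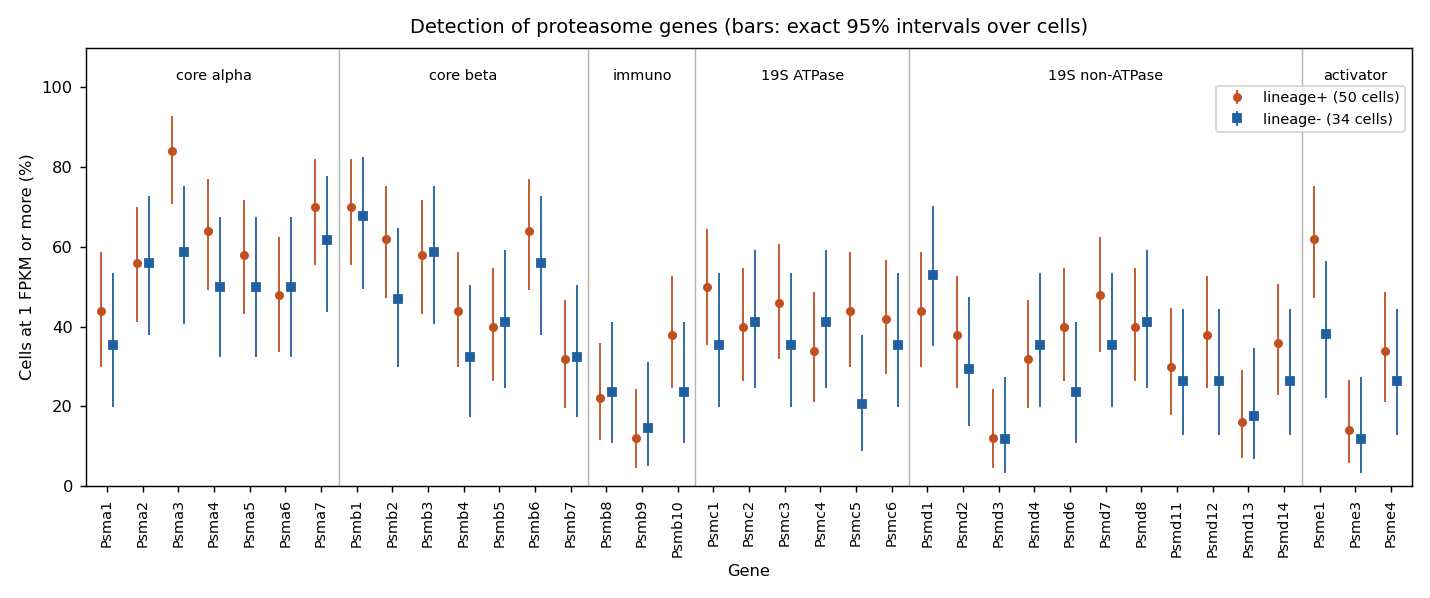
Share of cells at 1 FPKM or more (percent) for the same 37 genes, with lineage+ cells as orange circles, lineage- cells as blue squares and bars for exact Clopper-Pearson 95% intervals over cells. Psma3 has the highest share in lineage+ cells, 84%, against 58.8% of lineage- cells. In lineage- cells Psmb1 has the highest share, 67.6%. The intervals of the groups overlap for every gene shown, which was not counted over all genes.

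Of the 43 genes, 7 had a mean at least 2-fold higher in lineage+ than in lineage- cells, and 5 a mean at least 2-fold lower, with 1 FPKM added to both means. Among all 21285 genes 15.1% were at least 2-fold higher and 13.1% lower. The background used here is the 6082 genes whose shares of detecting cells averaged 10% or more. Of these, 27.3% were at least 2-fold higher and 22.3% at least 2-fold lower. Of the 43, 40 reached that detection. Their median shares were 40% of lineage+ and 35.3% of lineage- cells, against 26% and 20.6% for the 6082 genes. The background is therefore not matched for detection. The shares of the 43 were 16.3% and 11.6%. With at least 2000 detected genes they were 16.3% higher and 27.9% lower, against 27% and 23.5% of all genes so detected, and with 1500 to 2500 detected genes (a range chosen after the difference in detected genes was seen) 32.6% and 14%, against 33.6% and 25.9%. The median log2 ratio was 0.11 over the 43 genes and 0.10 over the 6082 genes. Adding 1 FPKM makes the ratios of low genes too small.

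**Figure D3:**
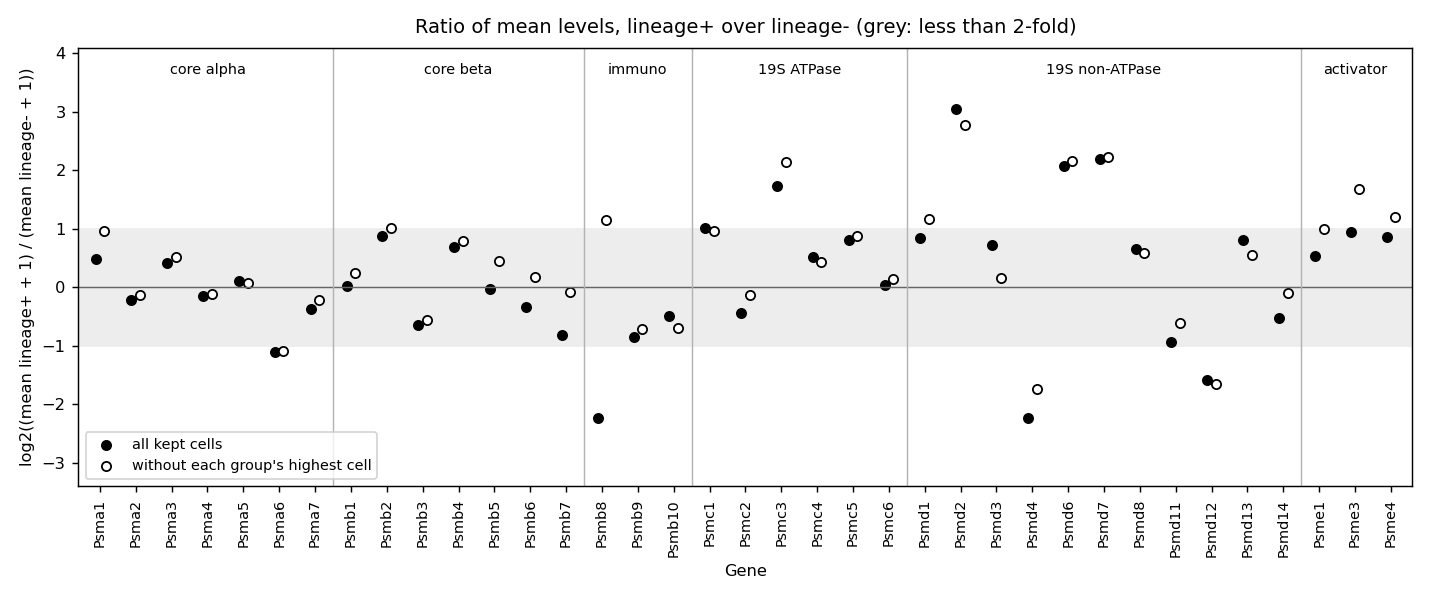
Log2 ratio of mean levels, lineage+ over lineage-, with 1 FPKM added to each mean, over all kept cells (filled) and without each group's highest cell for that gene (open). The grey band marks less than 2-fold. Psmb8 lies at -2.24 over all cells and at 1.15 with each group's highest cell left out.

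The alpha ring stayed within 2-fold in 6 of 7 genes, beside 3066 of the 6082 background genes. Psma3 was the most widely detected proteasome gene in lineage+ cells, and Psmb1 in lineage- cells (23 of 34). Psma3 is named for its lineage+ share after its values were seen. It was detected in 42 of 50 lineage+ cells (84%, interval 70.9 to 92.8%) and 20 of 34 lineage- cells (58.8%, interval 40.7 to 75.4%). Its level had a lowest, median and highest cell of 0, 48.0 and 1039 FPKM in lineage+ cells and 0, 5.46 and 824 FPKM in lineage- cells, with means of 166 and 124 FPKM and a log2 ratio of 0.41. The groups overlapped over most of their range, and the larger gap was in the median cell.

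Psma6 was the alpha gene at least 2-fold lower. Its cells ran between 0 and 534 FPKM in lineage+ cells, with a median of 0.742 FPKM and a mean of 67.0 FPKM. In lineage- cells they ran between 0 and 893 FPKM, with a median of 1.64 FPKM and a mean of 146 FPKM. The log2 ratio was -1.11, and -1.09 with each group's highest cell left out. It was past 2-fold under 6 of the 10 other settings tried for single genes, and was -0.61 on the mean of log2 levels. Shares were nearly equal, 24 of 50 lineage+ cells and 17 of 34 lineage- cells, so the lower mean came with lower values in the cells that detected it, 110 FPKM in the median detecting lineage+ cell against 214 FPKM in lineage-. Psma1 and Psma7 lay on either side, with log2 ratios of 0.48 (-0.70 with 1500 to 2500 detected genes) and -0.37 (0.16 on the mean of log2 levels).

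In the beta ring no gene reached 2-fold over all kept cells, beside 27.3% higher and 22.3% lower in the background. Psmb2 was nearest on the higher side, with a mean of 126 FPKM and a highest cell of 905 FPKM in lineage+ cells, and a mean of 67.9 FPKM and a highest cell of 522 FPKM in lineage- cells (log2 ratio 0.88, and -0.03 with at least 2000 detected genes). Psmb4, with means of 73.5 and 45.3 FPKM in lineage+ and lineage- cells, had a log2 ratio of 0.68, and -0.08 with 1500 to 2500 detected genes. Psmb3 had the highest mean of all proteasome genes in both groups, 168 FPKM in lineage+ cells and 263 FPKM in lineage- cells (log2 ratio -0.64, and 0.11 with 1500 to 2500 detected genes). The median log2 ratio over the 14 core genes was -0.08. It was 0.27 when each cell was scaled to a common total, which also moved the median of the 6082-gene background to 0.24, so the core had no fixed direction.

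The constitutive catalytic subunits showed broad overlap. Psmb5, the chymotrypsin-like subunit, had a lowest, median and highest cell of 0, 0.087 and 1515 FPKM in lineage+ cells and 0, 0.202 and 1812 FPKM in lineage- cells. It was detected in 20 of 50 lineage+ cells (40%, interval 26.4 to 54.8%) and 14 of 34 lineage- cells (41.2%, interval 24.6 to 59.3%), and its means were 106 and 108 FPKM (log2 ratio -0.03). Over all kept cells level and detection were nearly the same in the groups, and most cells of both did not detect the gene. The ratio depended on the cells kept: it was 1.89 with 1500 to 2500 detected genes, -0.55 with at least 2000 and 0.44 with cells scaled to a common total.

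Psmb6, the caspase-like subunit, was detected more widely, in 32 of 50 lineage+ cells and 19 of 34 lineage- cells. Its median and highest cells were 11.7 and 980.1 FPKM in lineage+ cells and 4.75 and 2489 FPKM in lineage- cells, with means of 146 and 185 FPKM (log2 ratio -0.33). A high cell weighed on the lineage- mean: without each group's highest cell the log2 ratio was 0.17. It was 0.27 with cells scaled to a common total and 0.34 with 1500 to 2500 detected genes.

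Psmb7, the trypsin-like subunit, was detected in 16 of 50 lineage+ cells and 11 of 34 lineage- cells, and was listed at 0 in the median cell of both. Its highest cell was at 881 FPKM in lineage+ cells and 2137 FPKM in lineage- cells, and its means were 61.8 and 109 FPKM (log2 ratio -0.81). The highest lineage- cell held 57.5% of the group's summed level, and without each group's highest cell the log2 ratio was -0.08. With 1500 to 2500 detected genes it was 1.75, and with at least 2000 it was -1.44.

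The immunoproteasome genes were detected in fewer cells than their constitutive counterparts, in both groups, apart from Psmb10 in lineage+ cells. Psmb8, which takes the place of Psmb5, lies on chromosome 17 at 34198195 to 34201454. It was detected in 11 of 50 lineage+ cells (22%, interval 11.5 to 36.0%) and 8 of 34 lineage- cells (23.5%, interval 10.7 to 41.2%), and its median cell was listed at 0 in both. The highest cell was at 334 FPKM in lineage+ cells and 4221 FPKM in lineage- cells, and the means were 27.3 and 133 FPKM, a log2 ratio of -2.24.

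That ratio rested on 1 cell. Lineage- cell 16, an epithelial-like cell, held 93.5% of the summed Psmb8 level of its group, and the next lineage- cell was at 109 FPKM. Without each group's highest cell the means were 21.0 FPKM in lineage+ cells and 8.95 FPKM in lineage- cells, and the log2 ratio was 1.15. Cell 16 was listed at 0 for Psmb5, Psmb9 and Psmb10 and held 472 FPKM of Psmb7. Psmb8 overlaps the antisense gene Gm20496 in GENCODE M21, and strand-specific counting is not stated by the sources at hand.

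Psmb9, which takes the place of Psmb6, lies beside Psmb8 on chromosome 17 at 34182099 to 34187330. Detection reached 6 of 50 lineage+ cells (12%, interval 4.53 to 24.3%) and 5 of 34 lineage- cells (14.7%, interval 4.95 to 31.1%). Its highest cells were 225 FPKM in lineage+ cells and 314 FPKM in lineage- cells, and its means were 9.53 and 18.1 FPKM (log2 ratio -0.86). All but 6 lineage+ cells and 6 lineage- cells were listed at 0.

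Psmb10, which takes the place of Psmb7, lies on chromosome 8 at 105935728 to 105938392. Cells detecting it were 19 of 50 lineage+ cells (38%, interval 24.6 to 52.8%) and 8 of 34 lineage- cells (23.5%, interval 10.7 to 41.2%), although its mean was lower in lineage+ cells, at 21.5 FPKM against 30.5 FPKM (log2 ratio -0.49). The detecting cells differed in height: their median was 16.5 FPKM in lineage+ cells and 61.4 FPKM in lineage- cells. The direction of the mean depended on the setting. The log2 ratio was 0.35 on the mean of log2 levels, 0.70 with 1500 to 2500 detected genes and -2.11 with at least 2000.

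Summed over genes, Psmb8, Psmb9 and Psmb10 made up 15.6% of the mean level of the 6 exchangeable catalytic subunits in lineage+ cells and 31.1% in lineage- cells. Without each group's highest cell for each gene these shares were 13.4% and 15.3%, again in that group order. Of the 50 lineage+ cells, 31 detected at least 1 immunoproteasome gene, 26 of them exactly 1, 5 of them 2, and none all 3. Of the 34 lineage- cells, 16 detected at least 1, of which 12 had exactly 1, 3 had 2 and 1 had all 3. Of these, 28 of the 31 lineage+ cells (90.3%) and 14 of the 16 lineage- cells (87.5%) also detected Psmb5, Psmb6 or Psmb7, close to the shares of all cells that did, 43 of 50 lineage+ (86%) and 27 of 34 lineage- (79.4%). The summed immunoproteasome level was above the summed constitutive level in 13 lineage+ cells and 5 lineage- cells.

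**Figure D4:**
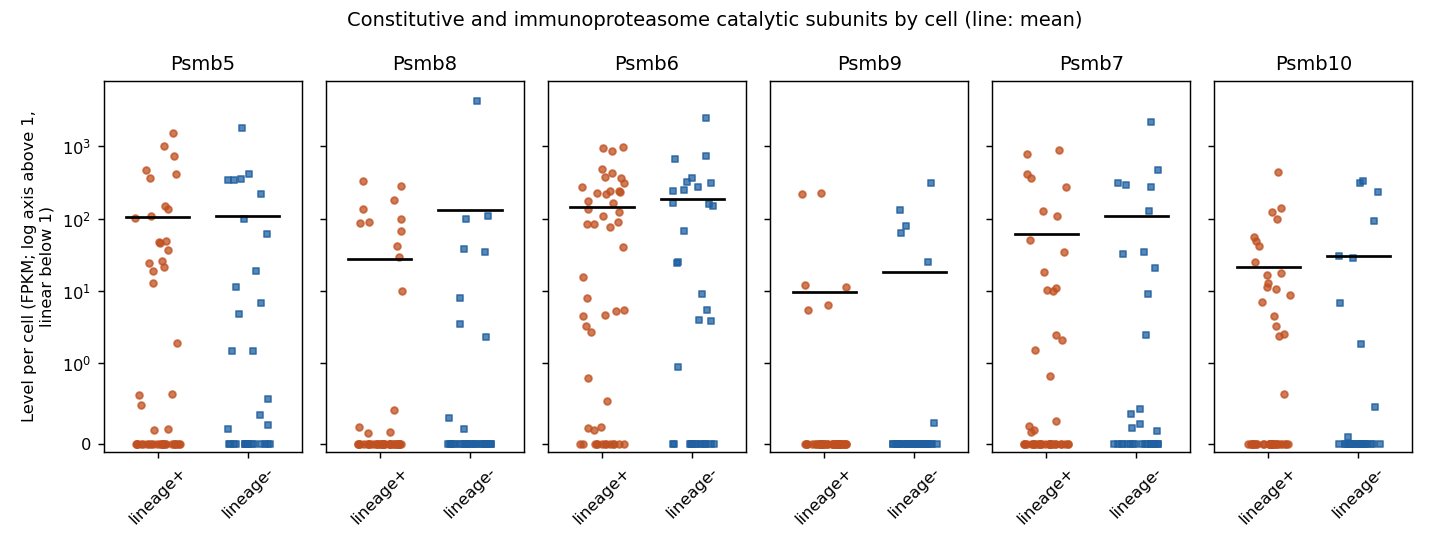
Level per cell (FPKM, log axis above 1 and linear below) of each constitutive catalytic subunit beside the immunoproteasome subunit that replaces it, with lineage+ cells left of lineage- cells and a line at the mean. The Psmb8 mean of lineage- cells lies above all of its points but 1, which stands at 4221 FPKM.

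Among the 6 ATPases of the regulatory particle, Psmc1 and Psmc3 had means at least 2-fold higher in lineage+ cells. That is 33.3% higher and none lower, beside 27.3% and 22.3% of the 6082 background genes. Psmc3 had a lowest, median and highest cell of 0, 0.732 and 649 FPKM in lineage+ cells and 0, 0.030 and 272 FPKM in lineage- cells, with means of 67.0 and 19.4 FPKM (log2 ratio 1.74, and 2.14 without each group's highest cell). It was detected in 23 of 50 lineage+ cells and 12 of 34 lineage- cells. The groups shared their lower range, and the gap lay in the upper cells.

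Psmc1 averaged 52.7 FPKM in lineage+ cells and 25.7 FPKM in lineage- cells (log2 ratio 1.01), just past 2-fold. It was -0.92 among cells with 1500 to 2500 detected genes. Its direction therefore depended on which cells were kept. Psmc5 (log2 ratio 0.80), Psmc4 (0.51), Psmc6 (0.04) and Psmc2 (-0.43) lay within 2-fold over all kept cells, and for Psmc4 the share was lower in lineage+ cells, 17 of 50 against 14 of 34. With at least 2000 detected genes Psmc5 was at -1.00, Psmc6 at -1.06 and Psmc2 at 0.32, and with 1500 to 2500 detected genes Psmc4 was at 1.30.

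The 11 non-ATPase subunits had the widest spread. Psmd2, Psmd6 and Psmd7 were at least 2-fold higher, Psmd4 and Psmd12 at least 2-fold lower, and 6 lay between. That is 27.3% higher and 18.2% lower, close to the 27.3% and 22.3% of the 6082 background genes. Psmd2 is a large scaffold of the base that docks ubiquitin-like domains. Its cells ran between 0 and 245 FPKM in lineage+ cells and between 0 and 7.84 FPKM in lineage- cells, with means of 18.6 and 1.37 FPKM, a log2 ratio of 3.05 and 2.78 without each group's highest cell. It was at 10 FPKM or more in 11 of 50 lineage+ cells and in none of 34 lineage- cells, while the shares at 1 FPKM were closer, 38% and 29.4%.

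Psmd7, a lid subunit that pairs with the deubiquitinase Psmd14, had a lowest, median and highest cell of 0, 0.539 and 416 FPKM in lineage+ cells and 0, 0 and 71.8 FPKM in lineage- cells. Its means were 43.9 and 8.84 FPKM (log2 ratio 2.19). At 100 FPKM or more there were 7 lineage+ cells and no lineage- cell. Psmd6, also in the lid, averaged 51.0 FPKM in lineage+ cells and 11.3 FPKM in lineage- cells (log2 ratio 2.08), with 20 of 50 and 8 of 34 cells detecting it. The ratios of Psmd6 and Psmd7 stayed past 2-fold under all 10 other settings tried for single genes, and that of Psmd2 under 9 of them. On the mean of log2 levels Psmd2 was at 0.93.

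Psmd4, a ubiquitin receptor, went the other way. Its highest cells were 200.2 FPKM in lineage+ cells and 1633 FPKM in lineage- cells, its means 23.4 and 114 FPKM, and its log2 ratio -2.24. Detection was close, 16 of 50 lineage+ cells and 12 of 34 lineage- cells, and 2 lineage- cells, at 1633 and 1597 FPKM, stood far above the rest. Without each group's highest cell the log2 ratio was -1.74.

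Psmd12, a lid subunit, averaged 13.2 FPKM in lineage+ cells and 41.6 FPKM in lineage- cells (log2 ratio -1.58). Psmd11, also in the lid, averaged 15.2 FPKM in lineage+ cells and 29.8 FPKM in lineage- cells (log2 ratio -0.93). Psmd14, the deubiquitinase, averaged 43.4 FPKM in lineage+ cells and 62.6 FPKM in lineage- cells (log2 ratio -0.52), and 56.6% of its summed lineage- level was in 1 cell. Psmd1, Psmd3, Psmd8 and Psmd13 had log2 ratios between 0.66 and 0.85. On the mean of log2 levels in place of the log2 of the mean, Psmd4 was at -0.27 and Psmd12 at -0.04, so the lower means went with few high lineage- cells.

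Among the activators, Psme1 encodes the alpha subunit of PA28, which opens the core gate without ATP. Cells detecting it numbered 31 of 50 lineage+ cells (62%, interval 47.2 to 75.4%) and 13 of 34 lineage- cells (38.2%, interval 22.2 to 56.4%). Its lowest, median and highest cells were 0, 24.7 and 460.4 FPKM in lineage+ cells and 0, 0 and 599 FPKM in lineage- cells, with means of 66.6 and 45.5 FPKM (log2 ratio 0.54). The difference between the groups was thus wider in the middle of the cells than in the mean. Psme1 overlaps Emc9 on the opposite strand.

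Psme3, the nuclear PA28 gamma, was detected in 7 of 50 lineage+ cells and 4 of 34 lineage- cells, with means of 9.39 and 4.41 FPKM (log2 ratio 0.94). Psme4, which encodes the nuclear activator PA200, was detected in 17 of 50 lineage+ cells and 9 of 34 lineage- cells, with means of 7.92 and 3.89 FPKM (log2 ratio 0.87). All 3 activators thus had higher means in lineage+ cells, each by less than 2-fold, and the median log2 ratio over the 20 regulatory and activator genes was 0.76. Among cells with at least 2000 detected genes, 35 lineage+ and 12 lineage-, that median was -0.14, with a background median of 0.02, and Psme1 and Psme3 were at -0.29 and -2.44.

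The tissue-restricted subunits were all but unseen. Psma8, known from testis, was listed at 0 in all 50 lineage+ cells (upper limit of the exact interval 7.11%) and was at 13.8 FPKM in 1 lineage- cell. Psmb11, the thymus subunit, stayed at or under 0.438 FPKM in lineage+ cells and reached 1.5 FPKM in 1 lineage- cell. It was nevertheless above 0 in 49 of 50 lineage+ cells and 31 of 34 lineage- cells. Psmc3ip was detected in 2 of 50 lineage+ cells and no lineage- cell. The assembly chaperones had log2 ratios of 2.78 for Psmd5, 1.39 for Psmd10 and -1.08 for Psmd9. Without each group's highest cell these were 2.90, 0.75 and -0.38, in that order. At most 9 of 50 lineage+ cells and 5 of 34 lineage- cells detected any of these chaperones.

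Few cells carried much of each mean. Over the 37 core, immunoproteasome and regulatory genes, the highest cell held a median of 24.5% of the summed level in lineage+ cells (8.70 to 72.8%) and 35.4% in lineage- cells (16.9 to 93.5%). It held more than 50% for Psmd3 in lineage+ cells and for 6 genes in lineage- cells, which were Psmb7, Psmb8, Psmb9, Psmc6, Psmd14 and Psme3. These were different cells for different genes: 22 lineage+ cells and 22 lineage- cells were the highest for at least 1 gene. A well whose description names debris, lineage- cell 23, was the highest lineage- cell for Psma2, Psma5 and Psmc2. Without it the log2 ratios of the named genes stayed within 1.5-fold of the values above, and the sign turned for Psmc2, to 0.13, and for Psmc6, to -0.0023.

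Within a cell, most subunits were not seen. Lineage+ cells detected a median of 16.5 of the 34 core and regulatory genes (5 to 29) and lineage- cells 12.5 (3 to 26). The number followed the detected genes of the cell, with a Spearman rho across cells of 0.81 in lineage+ cells and 0.84 in lineage- cells. Both are counts from the same library and share its depth, so the correlations are descriptions. Among cells with 1500 to 2500 detected genes the medians were 13.5 subunits in 24 lineage+ cells and 15 in 17 lineage- cells. By these medians the order of the groups was turned round. The median share of cells detecting a core or regulatory gene kept its order in this range, at 37.5% of lineage+ and 35.3% of lineage- cells. Detected genes still differed within the range, with medians of 2128 in lineage+ cells and 1854 in lineage- cells.

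**Figure D5:**
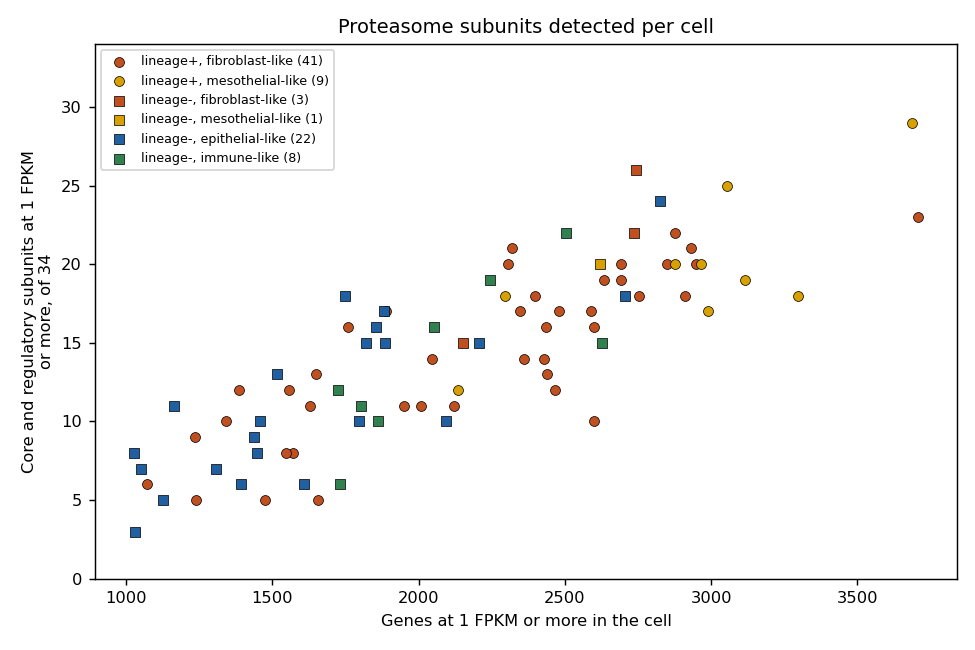
Core and regulatory proteasome genes at 1 FPKM or more in a cell, of 34, against all genes at 1 FPKM or more in that cell, with circles for lineage+ and squares for lineage- cells and colours for cluster classes. Lineage+ cells lie between 5 and 29 detected subunits and lineage- cells between 3 and 26, along a shared rising band.

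As a fraction of all FPKM in a cell, the summed core and regulatory genes took a median of 7238 ppm in lineage+ cells (333 to 20662) and 6772 ppm in lineage- cells (66.3 to 17504). The ranges overlapped nearly wholly. Subunits of the same complex hardly varied together from cell to cell: over the 561 pairs of these 34 genes, the median Spearman rho was 0.06 in lineage+ cells and 0.14 in lineage- cells. In counts this sparse that is a description only.

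Among the lineage- cells, the 22 epithelial-like cells were set against the 8 immune-like cells. The immune-like cluster is led by Chi3l3, Ccl6, Il1a and Tnf, and also detected 11 of 21 epithelial markers, and the cells came through a gate that removes CD45-positive cells. Of the 14 core genes, 10 had a mean at least 2-fold higher in epithelial-like cells and none lower. Among 5565 genes detected in these cells, 38.4% were at least 2-fold higher in epithelial-like cells and 28.3% lower. Detection did not always follow the mean. Psma1, Psmb6 and Psmb7, among the 10, were detected in 36.4, 50 and 22.7% of epithelial-like cells. In immune-like cells these shares were larger, 37.5, 62.5 and 37.5%. The rest of the 10 had the larger share in epithelial-like cells. Of the 20 regulatory and activator genes, 8 were at least 2-fold higher and 6 lower.

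Psmb5 was widest apart, at 151 FPKM in epithelial-like cells (11 of 22 detecting it, highest 1812 FPKM) and 0.280 FPKM in immune-like cells (1 of 8, highest 1.46 FPKM), a log2 ratio of 6.89. Psmb6 averaged 246 FPKM in epithelial-like cells and 23.1 FPKM in immune-like cells, but was detected in 11 of 22 and 5 of 8 of them. Psmb10 averaged 27.0 FPKM in epithelial-like cells (4 of 22) and 54.6 FPKM in immune-like cells (3 of 8). Psmb8 was detected in 1 of 8 immune-like and 5 of 22 epithelial-like cells, and Psmb9 in 2 of 8 and 3 of 22. At least 1 immunoproteasome gene was detected in 4 of 8 immune-like cells (50%) and 9 of 22 epithelial-like cells (40.9%). Immune-like cells had a median of 1958.5 detected genes and epithelial-like cells 1563.5. Psme3 went the other way to Psmb5, with no epithelial-like cell and 3 of 8 immune-like cells detecting it (log2 ratio -4.18). With 8 cells in a class, each of these values can turn on 1 cell.

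Among the lineage+ cells, the 9 mesothelial-like cells were set against the 41 fibroblast-like cells. Of the 14 core genes, 5 were at least 2-fold higher in mesothelial-like cells and 3 at least 2-fold lower, where 26.5% of 6683 genes were higher and 21.5% lower. The 5 were Psma1, Psma2, Psma6, Psmb2 and Psmb4. The 3 were Psma4, Psmb5 and Psmb7. Psmb5 averaged 30.4 FPKM in mesothelial-like cells and 122.8 FPKM in fibroblast-like cells, at similar shares of 4 of 9 and 16 of 41. Psmb9 was listed at 0 in all 9 mesothelial-like cells and detected in 6 of 41 fibroblast-like cells. Psmd4 was higher in mesothelial-like cells, at 71.3 FPKM (6 of 9) against 12.9 FPKM (10 of 41). Mesothelial-like cells had a median of 2988 detected genes and fibroblast-like cells 2347.

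The wider ubiquitin and proteasome pathway was read from lists of related genes. Of 8 assembly chaperones with values, 3 (37.5%) had means at least 2-fold higher in lineage+ than in lineage- cells, and 2 (25%) were lower. The background was 27.3% higher and 22.3% lower. Psmd5, Psmd9 and Psmd10 are among the 8 and were already counted above, with 2 of the 3 higher and 1 of the 2 lower. Pomp, which matures the core, was the most widely detected of the 8 and averaged 108 FPKM in lineage+ cells and 131 FPKM in lineage- cells. Of 13 other proteasome-associated genes, none was at least 2-fold higher and 3 (23.1%) were lower, beside the same background. Among these 3, the deubiquitinase Uchl5 averaged 5.90 FPKM in lineage+ cells and 14.6 FPKM in lineage- cells (log2 ratio -1.18). In lineage- cells 1 cell held 52.1% of its summed level, and without each group's highest cell the log2 ratio was -0.76. Uchl5 was detected in 9 of 50 lineage+ cells and 5 of 34 lineage- cells.

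Ubb, a polyubiquitin gene, was far above the proteasome genes per length. It averaged 2558 FPKM in lineage+ cells and 962 FPKM in lineage- cells (log2 ratio 1.41). Of 7 genes known to regulate proteasome genes, Nfyb and Stat3 were past 2-fold on the higher side and Nfe2l2 on the lower. That is 28.6% and 14.3%, beside the background of 27.3% and 22.3%. Nfyb, a subunit of the CCAAT-binding factor, was detected in 15 of 50 lineage+ cells and no lineage- cell, with means of 9.47 and 0.0089 FPKM. Nfe2l2, which binds antioxidant elements, averaged 33.6 FPKM in lineage+ cells and 83.5 FPKM in lineage- cells (log2 ratio -1.29).

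In the MHC class I pathway, which uses proteasome products, 2 of 12 genes (16.7%) were at least 2-fold higher and none lower. The background was 27.3% higher and 22.3% lower. The 2 genes were Pdia3, at 143 FPKM in lineage+ cells and 46.9 FPKM in lineage- cells (log2 ratio 1.59), and Tapbpl. For Tapbpl 1 cell held 66.6% of the summed lineage+ level. Tapbpl was detected in 26% of lineage+ cells and 41.2% of lineage- cells. Tap1 and Tap2, neighbours of Psmb9 and Psmb8, had means at or under 1.08 FPKM in both groups, with highest cells of 32.2 and 6.73 FPKM in lineage+ cells and 8.36 and 6.11 FPKM in lineage- cells. Of 10 interferon-signalling genes, 7 (70%) stood at least 2-fold higher in lineage+ and none lower, beside the same background. Among them were Ifngr1, a chain of the interferon gamma receptor, at 118 FPKM (40 of 50 cells) against 37.5 FPKM (19 of 34), and Jak1, at 43.5 FPKM (43 of 50) against 19.8 FPKM (15 of 34). Ifnar2 was detected in 29 of 50 lineage+ cells and 5 of 34 lineage- cells, and 1 cell held 88.3% of its summed lineage- level. Of the 7, only Jak2 fell under 2-fold without each group's highest cell, to a log2 ratio of 0.59. Over all kept cells no immunoproteasome gene had a 2-fold higher mean in lineage+ cells, and a link to the interferon list was not tested.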

How the data were processed

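Single cells were captured on Fluidigm C1 chips and converted to cDNA with SMARTer reagents. Nextera XT libraries were read as single ends, at about 6 to 7 M reads a cell on average, per the labels' protocols. Wells were inspected by eye there, and doublets were not called again. RSEM 1.2.20, Bowtie 1.1.1 and both GRCm38 and mm9 appear in the submitters' processing notes, with no order or role.

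The deposited tables, a table per group, hold FPKM for each gene in each cell. The unit is inferred from the values and the layout per the file headers, which is that of a Cufflinks gene table. Not given in the sources used here are whether the tables were scaled together and how reads of overlapping genes and pseudogenes were divided. FPKM keep no counts, so depth per cell is unknown here, and a listed 0 can be a failed estimate. Total FPKM per cell had medians of 288286 in lineage+ and 327392 in lineage- cells.

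Of 23846 gene entries, 1830 without values and 731 with repeated symbols were left out, which leaves 21285. Lineage+ profiles 9 and 23 (Pearson r 0.997) and 2 and 15 (0.996) were averaged, since the next highest r was 0.596, leaving 91. Cells were kept from 1000 genes at 1 FPKM upward, which left out 2 lineage+ and 5 lineage- cells. Levels are means over kept cells, and ratios are log2 after adding 1 FPKM to each mean. Shares have exact Clopper-Pearson 95% intervals. Each group is 1 sample, so no p-value was computed. The ratio was checked on resampled lineage+ cells, with known changes larger than 2-fold planted in widely detected genes. This leaves 2-fold calls in sparsely detected genes unchecked.

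Cells were clustered with scanpy 1.11.5 on 2000 variable genes without the proteasome and related genes (15 components, 10 neighbours, resolution 1, seed 0). Clusters were named by the marker list with the highest median, checked against the leading genes, a rule set after the clusters were seen. Named with values are the catalytic subunits and activators, and the 3 highest and 3 lowest ratios among other core, ATPase and non-ATPase genes. Matches that are not subunits and up to 4 genes of each related list were also named. Others were named after their values were seen. Some genes of the related lists are not reported here. Members and lists were chosen with earlier results of these data known. Coordinates are those of the files with 1 added to the start, and 28 of the 43 starts then equal the RefSeq start on GRCm38. Promoters are the RefSeq windows cut to the 250 bases upstream. Alternatives were the added FPKM, the detection level, the filter on cells, the scaling, the summary over cells, repeated profiles, the debris well and the highest cells. Python 3.11.15, numpy 2.4.6, pandas 2.3.3 and scipy 1.17.1 were used.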

Additional observations from a re-analysis of the deposited data

How the results depend on the processing

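Values are medians of log2 ratios (lineage+ over lineage-), counts or shares as in the report, and the cause of a move was not tested unless the setting itself removes the cell. Shares of all genes averaging 10% detection under the same setting stand in parentheses. Adding 0.1 FPKM gave 11 genes at least 2-fold higher, 25.6% of 43 (30.3%). Without each group's highest cell for each gene there were 11 higher, 25.6% (35.3%), and 3 lower, 6.98% (16%), the immunoproteasome share of catalytic subunits in lineage- cells was 15.3%, and Psmb8 turned to 1.15, since 1 cell was removed. On the mean of log2 levels the core median was 0.54, the immunoproteasome median 0.15, no gene was at least 2-fold lower (4.67%), and Psmb8 was 0.15. The background medians over genes averaging 10% detection were then 0.43 without the highest cells and 0.26 on the mean of log2 levels, against 0.10. With at least 2000 detected genes (35 lineage+ and 12 lineage- cells) the immunoproteasome median was -1.69, the regulatory median -0.14, 12 genes were at least 2-fold lower, 27.9% (23.5%), the median share detecting a core or regulatory subunit was 50% of lineage+ cells and 58.3% of lineage- cells, against 44% and 35.3% as reported, and Psmb8 was 0.74. With no minimum of detected genes, 3 were lower, 6.98% (20.3%). With 1500 to 2500 detected genes, added after the data were seen (24 lineage+ and 17 lineage- cells), the immunoproteasome median was -2.41, which is the Psmb8 ratio. There 14 genes were at least 2-fold higher, 32.6% (33.6%), the immunoproteasome share in lineage- cells was 63.1% and Psmc1 was -0.92. Lineage- cell 16, with 4221 FPKM of Psmb8 and 1517 detected genes, is kept by this range and left out with at least 2000 detected genes. The 63.1% without that cell was not computed. Of the 27 genes named by rule, 13 moved by over 1.5-fold with at least 2000 detected genes, 13 on the mean of log2 levels, 18 with 1500 to 2500 detected genes and at most 2 under any other setting, beside the reversals above. No paired analysis was possible because each lineage group is 1 sample and cell numbers only name cells. FPKM without counts limit what can be said of genes at or near 0 in most cells.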

Other observations

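The 7 cells left out for fewer than 1000 detected genes still held proteasome transcripts. The 2 lineage+ cells, with 969 and 812 detected genes, detected 1 core or regulatory subunit each. The 5 lineage- cells, with 227 to 752 detected genes, detected between 1 and 7. The highest proteasome gene among the 7 cells was Psmd4, at 210 FPKM in lineage- cell 33.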
